A study of Mus musculus with 2 samples.

Results

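Ly6C-positive C1q-negative monocytes of the mouse colon were examined in single-cell RNA profiles of the lamina propria, the tissue layer that lies beneath the epithelium. The members were chosen by their own RNA values. A member had 1 or more UMIs of Csf1r and of Ccr2, at least 3 UMIs of Ly6c2 per 10000 UMIs of the cell, at most 1 UMI of C1qa, C1qb and C1qc together, and none of Nos2, Flt3, Cd3e or Cd79a. A UMI is a tag that lets copies of 1 captured RNA be counted as 1. Of 20052 kept cells, 1153 met the rule, 446 in the Runx3_fl-labelled library and 707 in the Runx3-labelled one. There was 1 library per group, so no test was possible and no difference between the libraries has a replicate check.

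The study compared mice in which floxed Runx3 alleles were removed by Cre under the control of Lyz2, a promoter of myeloid cells, with littermates that carried the floxed alleles alone. Each library was a pool, described in the study as male mice aged 8 weeks, so single animals cannot be followed. Neither title says whether Cre was present, and the libraries are named here by their titles only. The library titled Runx3_fl comes first wherever a pair of values or a first and a second library are named. The labels describe the cells as CD11b-positive, and Itgam, which encodes CD11b, had a UMI in 79.8% and 72.4% of the monocytes in the Runx3_fl-labelled library and in the Runx3-labelled one.

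Gut macrophages are renewed from blood. Classical monocytes, which carry Ly6C and the chemokine receptor CCR2, enter the lamina propria, gain MHC class II, lose Ly6C and mature into CX3CR1-positive macrophages that make the complement protein C1q and take up dying cells. In inflamed tissue, cells early on this path are known as sources of IL-1β, TNF and chemokines.

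The libraries differed in ways that bear on every comparison between them. The median monocyte yielded 12692 UMIs from 3144.5 genes in the Runx3_fl-labelled library, and 9742 UMIs from 2926 genes in the Runx3-labelled library. The libraries shared 27 barcodes among kept cells, 3 of them on monocytes of the first library and 2 on monocytes of the second. In the Runx3_fl-labelled library, 26.9% of monocytes held Xist RNA, which is made from the inactive X chromosome of females, and 72.6% held RNA of a Y-linked gene. A Y-linked UMI was found in 20.8% of its monocytes with Xist and in 91.7% of those without. In the Runx3-labelled library the shares were 0.141% with Xist and 81.6% with Y-linked RNA. The Xist-positive monocytes stand against the description of the mice as male, so the main counts are also given for cells with Y-linked RNA and no Xist.

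Monocytes made up 3.75% of kept cells in the Runx3_fl-labelled library (95% Clopper-Pearson interval 3.42 to 4.11, 446 of 11885 cells) and 8.66% in the Runx3-labelled library (8.06 to 9.29, 707 of 8167). Of cells with Csf1r, the receptor that defines monocytes and macrophages, they were 16.6% (15.3 to 18.1) and 22.4% (20.97 to 23.91). For each C1q-positive cell the first library held 0.890 monocytes and the second 1.04. With no C1q UMI allowed in monocytes this order turned, at 407 monocytes to 501 C1q-positive cells and 537 to 680. All intervals here cover counting error only. With every cell thinned to 5000 UMIs before the rule was read, the shares were 3.60% and 10.8%. Among cells with Y-linked RNA and no Xist they were 4.24% and 9.51%. The monocyte share of kept cells was thus higher in the Runx3-labelled library under each of these readings. The kept cells differed in make-up. T cells, with 2 or more Cd3e UMIs, numbered 2492 and 229, and B cells, with 2 or more Cd79a UMIs, 345 and 1041. Whether this make-up, the sort or the depth of the libraries contributed was not tested.

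The rule left a margin of cells on each side. CPM are UMIs of a gene in each 1e6 UMIs summed over the cells named. Cells with no C1q UMI were 407 and 537 of the monocytes, and those with exactly 1 were 39 and 170. Just outside, 25 and 52 cells had 2 C1q UMIs, with Chil3 at 61.2 and 1065 CPM. The median monocyte had 12.01 Ly6c2 UMIs per 10000 in the Runx3_fl-labelled library and 24.5 in the Runx3-labelled library. The 28 and 24 monocytes at 3 to 4 Ly6c2 UMIs per 10000 had Chil3 at 28.3 and 16.2 CPM, and the 43 and 18 cells just below the limit had 48.9 and 4.82 CPM. The cells at the Ly6c2 limit therefore had less of this monocyte gene than the monocytes as a whole, at 258 and 387 CPM. The limit on Nos2, the inducible nitric oxide synthase of activated macrophages, removed 86 and 40 cells, and that on Flt3, a receptor of dendritic cells and their precursors, removed 63 and 158.

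The label was checked against 3 of its markers that the rule did not use. Plac8, Chil3 and Vcan are genes of classical monocytes, encoding a cytoplasmic protein, a secreted chitinase-like lectin and the matrix proteoglycan versican. Each was higher in monocytes than in C1q-positive Csf1r-positive cells that still had Ccr2 and Ly6c2, and lower again in the other C1q-positive cells. In the Runx3_fl-labelled library, Chil3 (chromosome 3, 106147554 to 106167564, GRCm38) went from 258 CPM (95% Poisson interval 245 to 272) to 87.9 and then 21.2 CPM over these steps. In the Runx3-labelled library it went from 387 CPM (373 to 401) to 262 and 42.5 CPM. Vcan (chromosome 13, 89655312 to 89742509) went from 103 to 71.5 and 27.0 CPM in the first library, and from 133 to 61.6 and 13.2 CPM in the second. Plac8 (chromosome 5, 100553725 to 100572245) was the most abundant of the 3, with 3997, 3421 and 1321 CPM in the first library and 3764, 2994 and 1065 CPM in the second. T cells had at most 5.20 CPM of Chil3 and 2.16 CPM of Vcan. Plac8 was not confined in this way. Summed over Plac8, Chil3 and Vcan, T cells had 909 and 531 CPM, most of it Plac8, and monocytes 4359 and 4284 CPM. At 2000 UMIs per cell, a Chil3 UMI was found in 22.4% of monocytes and 0.0402% of T cells in the first library, and in 20.6% and 0.437% in the second. The thinning left out 0 and 42 monocytes, and median depths of T cells were 13655.5 and 8843 UMIs. The label thus fits the measured markers for the monocytes taken as a whole, though most single monocytes showed no Chil3 at that depth. It did not hold for every part of them. In the Runx3_fl-labelled library, the monocytes richest in MHC class II had less Chil3 and Vcan than the other C1q-positive cells, but more Plac8. In the Runx3-labelled library such monocytes had more of all 3 genes than the other C1q-positive cells. The values are given below with the split by MHC class II.

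**Figure D1:**
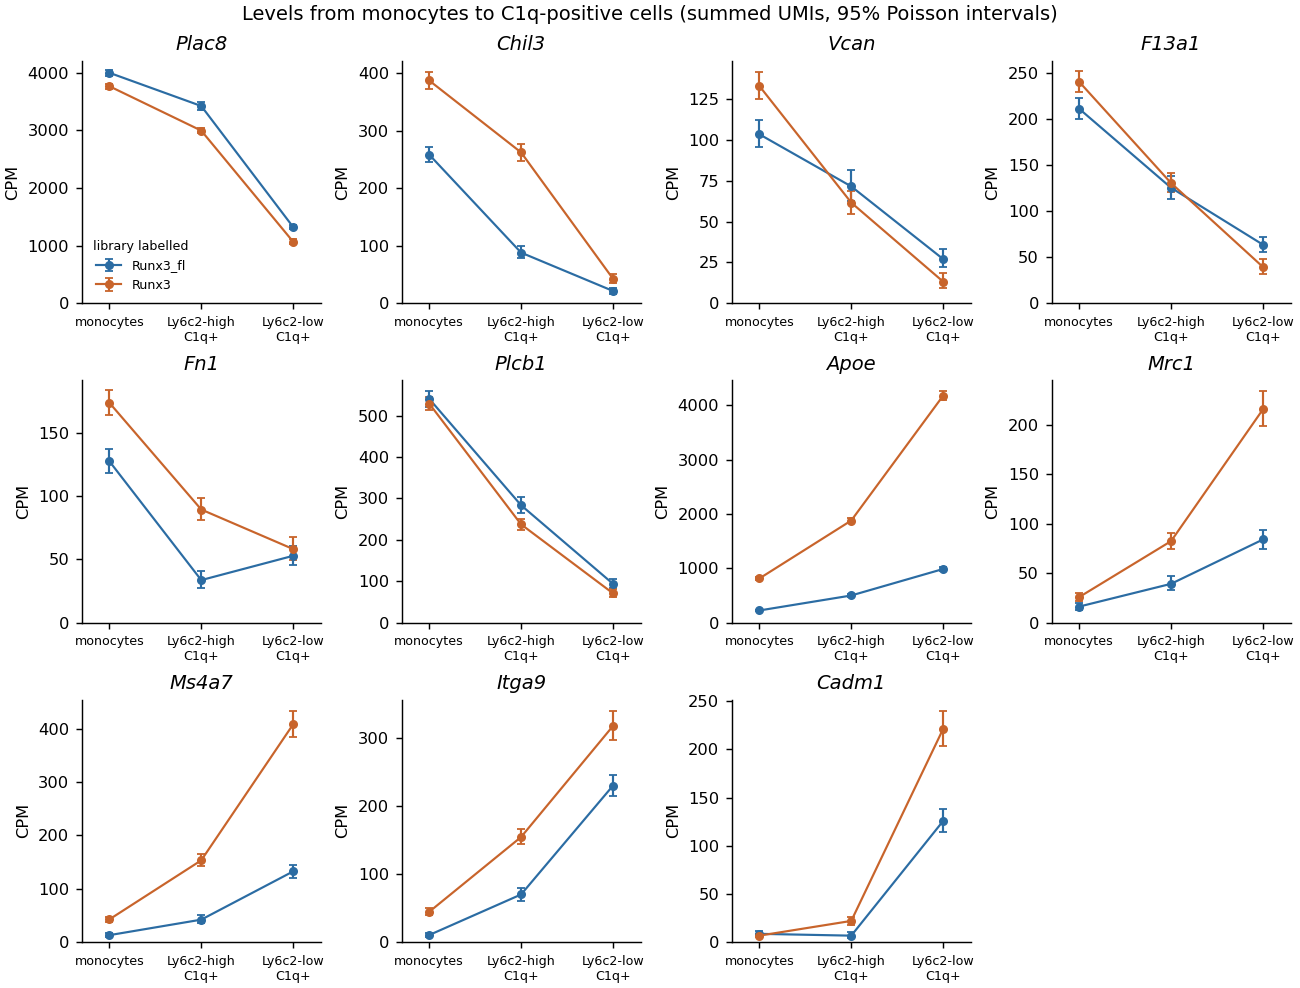
Levels (CPM of summed UMIs, linear axes from 0) of 11 genes in monocytes, in C1q-positive cells with Ccr2 and at least 3 Ly6c2 UMIs per 10000 (Ly6c2-high) and in the other C1q-positive cells (Ly6c2-low). Colours are the libraries and bars are 95% Poisson intervals. The first 6 genes are highest in monocytes and the last 5, from Apoe on, are highest in the Ly6c2-low cells, in both libraries.

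The next comparison asked what sets monocytes apart from C1q-positive cells of the same library. The rule used C1q and Ly6c2 of these cells, so the comparison is a description. Few genes differed. In the Runx3_fl-labelled library, 15 of 3323 genes (0.451%) were higher in monocytes by a log2 ratio of 1 or more and 28 (0.843%) were lower. In the Runx3-labelled library, 11 of 3689 (0.298%) were higher and 43 (1.17%) were lower. These are genes at 50 CPM or more in a group and with a UMI in at least 10% of its cells, and ratios are log2 of CPM plus 1. In both libraries together 9 of 3156 genes (0.285%) were higher and 14 (0.444%) were lower.

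Genes of matrix and coagulation were among those higher in monocytes. Plcb1 (chromosome 2, 134786067 to 135475258), a phospholipase of G protein signalling, was at 541 and 529 CPM in monocytes against 284 and 237 CPM in Ly6c2-high and 93.7 and 70.7 CPM in Ly6c2-low C1q-positive cells. Its log2 ratio was 1.58 in the Runx3_fl-labelled library and 1.57 in the Runx3-labelled library. F13a1, a subunit of coagulation factor XIII, had ratios of 1.19 and 1.29, and Fn1, which encodes fibronectin, 1.52 and 1.14. Mgst1, a membrane glutathione transferase, had 1.99 and 1.21. Hp, the haptoglobin that binds free haemoglobin, had 1.22 and 1.07. Ifitm6, of the interferon-induced transmembrane family, had 2.37 and 1.42. S100a4, a calcium-binding protein, was at 941 and 721 CPM with ratios of 1.18 and 0.97. In cells with Y-linked RNA and no Xist the number higher by that size in the first library was 9 in place of 15 and the number lower was again 28, while in the second library 10 were higher and 44 lower, and the ratios of Chil3, Vcan, F13a1 and Fn1 in the first library were 1.65, 0.90, 0.84 and 0.54.

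Of 19 genes in a list of classical monocyte genes, all 19 passed the filter on low values, 8 were higher by a log2 ratio of 1 or more in the Runx3_fl-labelled library and 7 in the Runx3-labelled one, and none was lower by that size. The list's median ratios were 0.74 and 0.72, beside -0.00 and 0.02 for all genes compared. Lyz2, a member and the lysozyme gene whose promoter drives the Cre of the study, was at 5709 CPM in monocytes of the first library and 2004 CPM in those of the second.

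Lower in monocytes were genes of mature macrophages. Apoe (chromosome 7, 19696109 to 19699188), which encodes a lipid carrier, was at 222 CPM in monocytes, 498 in Ly6c2-high and 986 in Ly6c2-low C1q-positive cells of the Runx3_fl-labelled library. In the Runx3-labelled library the same steps read 811, 1877 and 4175 CPM. Mrc1, the mannose receptor CD206 of resident macrophages, was at 16.2 and 25.8 CPM in monocytes against 84.1 and 216 CPM in the Ly6c2-low cells. Ms4a7 was at 12.7 and 42.3 CPM against 132 and 408 CPM, and Itga9, an integrin subunit, at 10.1 and 44.3 against 230 and 318 CPM. Cadm1, an adhesion molecule, differed from these. It was at 8.42 and 6.54 CPM in monocytes, at 6.53 and 21.8 CPM in Ly6c2-high cells and at 126 and 221 CPM in Ly6c2-low cells, so that in the first library the monocytes and the Ly6c2-high cells were within counting error of each other. C3ar1, the receptor for complement C3a, had log2 ratios of -2.32 and -1.59, Cd72 of -2.42 and -1.63, Pltp, a phospholipid transfer protein, of -1.60 and -1.30, and Acp5, an acid phosphatase, of -1.66 and -1.30.

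In the macrophage maturation list, 12 of 23 genes passed the filter in the Runx3_fl-labelled library and 18 in the Runx3-labelled one. Of these, 6 and 8 were lower in monocytes by a log2 ratio of 1 or more and none was higher. Their median ratios were -0.97 and -0.74. Cx3cr1, the fractalkine receptor gained during maturation, was at 35.4 and 81.7 CPM in monocytes and at 57.3 and 204 CPM in Ly6c2-low cells. Of 18 chemokine genes, none was lower by that size in the first library and 3 were in the second, Ccl7, Ccl12 and Pf4. Pf4, platelet factor 4, was at 0.688 and 1.23 CPM in monocytes and at 10.5 and 171 CPM in Ly6c2-low cells. The MHC class II list had 7 of 8 genes past the filter, none past the fold in either library, and medians of -0.24 and -0.47.

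No inflammatory cytokine gene differed from C1q-positive cells by a log2 ratio of 1 or more, though Il6 and Il10 came near it in the Runx3-labelled library. Il1b was at 4058 CPM in monocytes, 5272 in Ly6c2-high and 4942 in Ly6c2-low C1q-positive cells of the Runx3_fl-labelled library, and at 1482, 1883 and 1571 CPM in the Runx3-labelled library. Tnf was at 800, 1131 and 916 CPM in the first library. Il6 had the other order, with 230, 223 and 127 CPM in the first library and 61.8, 37.7 and 18.3 CPM in the second, where its ratio was 0.98, and 1.13 and 1.22 without cells of other-lineage UMIs and with at most 4000 genes per cell. Il10 was at 220 CPM in monocytes against 379 in Ly6c2-high cells of the first library, and at 92.4 against 160 in those of the second, with ratios to all C1q-positive cells of -0.66 and -0.90. Of 20 cytokine and receptor genes, 15 and 14 passed the filter and none differed by a log2 ratio of 1 in either library.

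Single monocytes differed widely in MHC class II, the molecules that present antigen to CD4 T cells. UMIs of H2-Aa, H2-Ab1, H2-Eb1 and Cd74 together ran from 2.46 per 10000 at the 5th percentile over a median of 170 to 353 at the 95th in the Runx3_fl-labelled library. In the Runx3-labelled library the same points were 4.31, 91.4 and 313. Under 20 UMIs per 10000 were 58 of 446 monocytes in the first library (95% interval 10.0% to 16.5%) and 147 of 707, or 20.8% (17.9% to 24.0%), in the second. The highest single cell reached 576 in each.

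**Figure D2:**
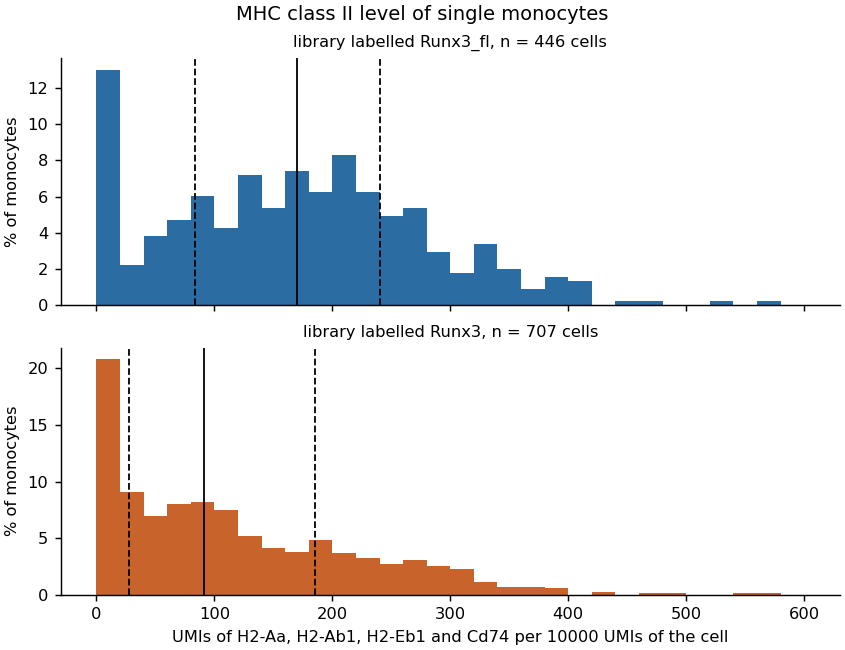
Percent of monocytes (vertical axis) by their UMIs of 4 MHC class II genes per 10000 UMIs (horizontal axis, bins of 20), for each library. Solid lines mark the medians, 170 and 91.4, and dashed lines the 25th and 75th percentiles. Both libraries have a group near 0, with 58 and 147 cells in the first bin.

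The 25% of monocytes with the least MHC class II (MHC-low) were set beside the 25% with the most (MHC-high), 112 and 112 cells in the Runx3_fl-labelled library and 177 and 177 in the Runx3-labelled one. Both are ranges of 1 level and not cell types. Several classical monocyte genes were higher in the MHC-low cells. Vcan was at 228 CPM there against 3.85 CPM in the MHC-high cells of the first library, and at 351 against 23.3 CPM in the second. Chil3 was at 829 against 12.2 CPM and at 879 against 69.8 CPM. Fn1 was at 481 against 20.5 CPM and at 521 against 31.4 CPM. These differences inside the monocytes were larger than those between all monocytes and all C1q-positive cells. The ends of a ranking and whole groups are unlike measures, so the sizes are not read against each other. Plac8 did not follow these genes, with 3570 against 3656 CPM and 3952 against 3615 CPM. Chil3 and Vcan in the MHC-high cells of the first library were below their levels in its Ly6c2-low C1q-positive cells. In the second library they were above them.

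Ly6c2 itself was at 1989 CPM in the MHC-low and 1042 CPM in the MHC-high cells of the Runx3_fl-labelled library, and at 3808 and 2360 CPM in the Runx3-labelled library. Across single monocytes thinned to 2000 UMIs, Spearman's rho of Ly6c2 with MHC class II was -0.23 over 446 cells and -0.23 over 665 cells, a description of cells that share a library. Lyz2 was at 8975 against 3263 CPM and at 3447 against 1159 CPM. Of the classical monocyte list, 11 of 19 genes were lower in the MHC-high cells by a log2 ratio of 1 or more in each library, and none was higher. Over all genes compared, 6.32% of 3403 were lower and 4.91% were higher by that size in the first library, and 3.93% of 3788 were lower and 2.32% higher in the second.

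Higher with MHC class II were Ccr7, a chemokine receptor of cells that leave for lymph nodes, at 42.2 against 404 CPM in the first library and 37.4 against 169 CPM in the second, and Cxcl9, an interferon-gamma-induced chemokine, at 624 against 1510 and 105 against 398 CPM. Pltp was at 8.12 against 50.7 and 8.96 against 79.4 CPM, and Cd72 at 2.44 against 18.6 and 5.27 against 82.0 CPM. Il1b was at 2661 against 4289 CPM and at 998 against 1973 CPM, log2 ratios of 0.69 and 0.98 that did not reach 1. Runx3 was at 107 against 171 CPM in the first library and 114 against 267 CPM in the second, ratios of 0.67 and 1.22. Ccr7 also belongs to a list of dendritic cell markers. Of that list's 11 genes, 2 passed the filter in the first library, Ccr7 and Dpp4, and 3 in the second, those and Cd209a. Each was higher in the MHC-high cells by a log2 ratio of 1 or more. A gene passed at 50 CPM in either group, and Ccr7 was below this in the MHC-low cells. Counts over such marker lists are therefore a description. Summed over the list, monocytes had 310 and 248 CPM of dendritic cell markers, and their part in these differences was not tested. Neutrophil markers were lower in the MHC-high cells, by a log2 ratio of 1 or more in 2 of 3 genes past the filter in the first library and 7 of 8 in the second, with S100a8 at 174 against 3.85 CPM and at 4031 against 94.6 CPM. Of 5 T and NK markers past the filter in the first library, Nkg7, Gzma, Gzmb and Il2rb were lower by that size and Klrd1 was higher, and none passed the filter in the second. The part of these cell types in the lower genes was not tested.

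**Figure D3:**
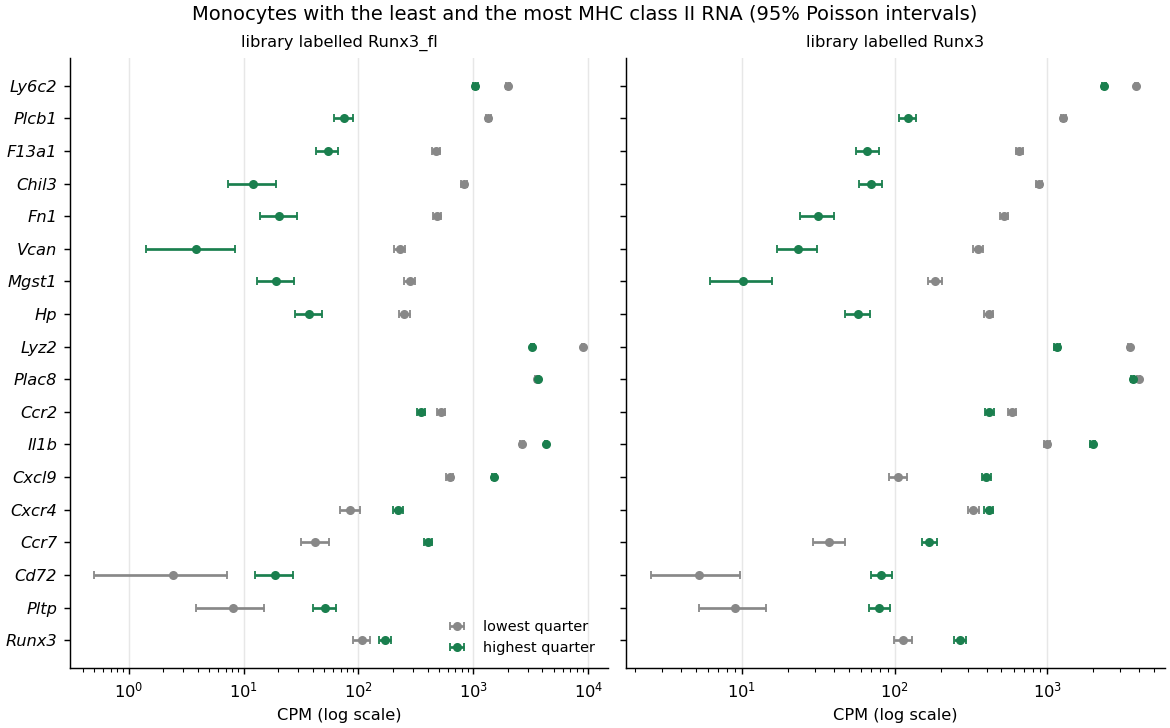
Levels (CPM, log axis) of 18 genes in the MHC-low (grey) and the MHC-high monocytes (green), for each library, with 95% Poisson intervals. In both libraries Plcb1, F13a1, Chil3, Fn1, Vcan, Mgst1 and Hp lie far lower in the MHC-high cells, Plac8 is close, and Ccr7, Cd72 and Pltp lie higher.

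Monocytes were then compared between the libraries. The targeted gene comes first. Runx3 (chromosome 4, 135120652 to 135177990) was at 143 CPM (133 to 153) in monocytes of the Runx3_fl-labelled library and at 193 CPM (183 to 204) in those of the Runx3-labelled library, a log2 ratio of 0.44, always given here as Runx3 over Runx3_fl. In C1q-positive cells the ratio was 0.70, and in T cells, in which Lyz2 was at 17.7 and 38.1 CPM, 0.05. A Runx3 UMI was found in 21.5% of monocytes and 11.9% of B cells thinned to 2000 UMIs in the first library, and in 30.4% and 10.4% in the second. Without thinning, 61.9% and 62.2% of monocytes had one. The deposited counts do not say which part of the gene a UMI came from, so a transcript that lacks the floxed part would be counted alike. Lyz2 had a ratio of -1.51 in monocytes and -1.49 in C1q-positive cells.

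Far more genes differed between the libraries than between the kinds of cell. Of 3628 genes, 257 (7.08%) were higher in monocytes of the Runx3-labelled library by a log2 ratio of 1 or more and 112 (3.09%) were lower. The median gene had a ratio of 0.07. In C1q-positive cells 7.37% of 3706 genes were higher and 3.94% lower. With only cells that had Y-linked RNA and no Xist the counts were 277 and 115, of which 232 and 106 were among those before. Batch, animals and group cannot be told apart, since each group was 1 library.

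Several inflammatory cytokines and chemokines were lower in monocytes of the Runx3-labelled library. Il1b (chromosome 2, 129364570 to 129371139), which encodes the fever-inducing cytokine IL-1β, was at 4058 CPM (4006 to 4110) in the Runx3_fl-labelled library and at 1482 CPM (1454 to 1510) in the Runx3-labelled library, a ratio of -1.45. A UMI was found in 87.9% and 68.7% of monocytes at 2000 UMIs, against 5.46% and 11.4% of T cells. Tnf went from 800 to 326 CPM and Il6 from 230 to 61.8 CPM, ratios of -1.29 and -1.88. Il1a was at 243 and 68.3 CPM, and Il23a, a subunit of interleukin 23, at 79.2 and 26.5 CPM. Il10, which restrains inflammation, was at 220 and 92.4 CPM, a ratio of -1.24. Osm, the cytokine oncostatin M, had the opposite sign, with 115 and 251 CPM and a ratio of 1.13. Of 15 cytokine and receptor genes past the filter 6 were lower by a log2 ratio of 1 or more and 1 was higher. The same list in C1q-positive cells had 6 lower and 1 higher, of 16 genes.

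Chemokine genes followed. Ccl5, a T cell-attracting chemokine, was at 1291 and 365 CPM in monocytes, a ratio of -1.82. T cells held more of it, at 2856 and 616 CPM, and the summed T and NK marker list was at 398 and 147 CPM in the monocytes. With cells left out that held 2 or more UMIs of lymphocyte markers or of neutrophil granule genes, the ratio of Ccl5 was -1.57. Cxcl9 was at 1140 and 259 CPM and Cxcl1, which draws neutrophils, at 231 and 57.1 CPM. Of 11 chemokine genes past the filter, 6 were lower by that size, Ccl4, Ccl5, Cxcl1, Cxcl2, Cxcl9 and Cxcl10, and none was higher. Their median ratio was -1.15. In C1q-positive cells the same count was 6 lower and 6 higher, of 14 genes. Among monocytes with Y-linked RNA and no Xist, the 6 chemokines named as lower stayed lower in the Runx3-labelled library. Others were higher there, with Ccl2 at 67.9 and 228 CPM, Ccl6 at 181 and 336 CPM and Ccl9 at 116 and 220 CPM. This order depended on which cells of the Runx3_fl-labelled library were used. Its monocytes with Xist and no Y-linked RNA had Ccl2 at 307, Ccl6 at 406 and Ccl9 at 288 CPM, each above the value in the Runx3-labelled library.

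Interferon-gamma response genes, which macrophages switch on when T and NK cells release that cytokine, were lower in 6 of 16 and higher in 0, with a median of -0.52. Gbp5, a guanylate-binding protein, was at 221 and 68.6 CPM. C1q-positive cells had 7 of 16 interferon-gamma response genes lower and none higher, with a median of -0.53. Type I interferon response genes went both ways in monocytes. Of 19 past the filter, 10 were higher by a log2 ratio of 1 or more, 2 were lower, and the median was 1.03. Ifit3 (chromosome 19, 34583531 to 34588731), which binds viral RNA complexes, was at 6.36 CPM in monocytes of the Runx3_fl-labelled library and 82.5 CPM in those of the Runx3-labelled library. Irf7 (chromosome 7, 141262706 to 141266481), a transcription factor that amplifies interferon production, was at 89.2 and 472 CPM, and Slfn4 at 16.0 and 254 CPM. Oasl1 (chromosome 5, 114923240 to 114937915), an inhibitor of Irf7 translation, had the other order, at 1082 and 433 CPM. Ifih1 (chromosome 2, 62595798 to 62646255), which encodes the viral RNA sensor MDA5, was at 548 and 199 CPM. In C1q-positive cells 8 of 18 were higher and 3 lower, with Ifit3 at a ratio of 2.50 and Ifih1 at -1.74.

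The promoter windows of 4 of these genes are shown because they come from 1 list and moved in opposite directions. Each is 300 bases of RefSeq on GRCm38.p6, from 250 bases before the start site, written 5′ to 3′ on the gene's strand. Capitals mark 2 copies of GAAA set 2 bases apart, on either strand, a form of the interferon-stimulated response element.
Ifit3: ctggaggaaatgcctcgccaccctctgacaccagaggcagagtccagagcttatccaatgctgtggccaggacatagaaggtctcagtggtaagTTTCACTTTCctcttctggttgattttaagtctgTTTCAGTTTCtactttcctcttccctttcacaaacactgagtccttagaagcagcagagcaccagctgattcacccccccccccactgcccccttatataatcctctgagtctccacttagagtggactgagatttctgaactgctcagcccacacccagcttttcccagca
Irf7: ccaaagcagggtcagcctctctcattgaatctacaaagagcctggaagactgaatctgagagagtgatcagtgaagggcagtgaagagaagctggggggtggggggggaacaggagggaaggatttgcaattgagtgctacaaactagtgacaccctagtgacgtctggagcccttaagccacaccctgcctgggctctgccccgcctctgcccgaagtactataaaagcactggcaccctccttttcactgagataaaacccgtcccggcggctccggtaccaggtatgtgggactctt
Oasl1: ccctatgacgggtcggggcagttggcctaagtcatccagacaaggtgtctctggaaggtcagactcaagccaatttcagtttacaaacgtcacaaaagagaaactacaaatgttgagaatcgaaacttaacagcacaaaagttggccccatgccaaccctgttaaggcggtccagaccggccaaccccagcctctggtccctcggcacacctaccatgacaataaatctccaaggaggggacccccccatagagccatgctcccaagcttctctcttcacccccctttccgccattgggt
Ifih1: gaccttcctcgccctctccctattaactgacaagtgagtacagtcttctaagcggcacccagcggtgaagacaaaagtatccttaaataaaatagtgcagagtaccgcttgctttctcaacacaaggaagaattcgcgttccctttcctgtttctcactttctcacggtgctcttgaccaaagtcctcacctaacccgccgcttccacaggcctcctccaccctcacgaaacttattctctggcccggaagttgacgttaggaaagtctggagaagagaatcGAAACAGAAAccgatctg
The window of Ifit3 (chr19:34583279-34583578, plus strand) holds 2 matches, the first 156 and the last 122 bases before the start site. That of Ifih1 (chr2:62646206-62646505, minus strand) holds 1, which begins 32 bases after it. Those of Irf7 (chr7:141266375-141266674, minus strand) and Oasl1 (chr5:114922990-114923289, plus strand) hold none. These letters are in 3.44% of all 32851 promoter windows, and in a window of 3.99% of the 27025 genes that have one. Of the type I interferon genes that had a window, 4 of the 9 that were higher held a match, 1 of the 2 that were lower, and 4 of the 6 between. A match is a set of letters and does not show that a factor binds there.

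Immediate early and stress genes, which cells switch on within minutes of a stimulus or of handling, were higher in the Runx3-labelled library. Of 22 past the filter, 12 were higher in monocytes by a log2 ratio of 1 or more and none was lower, with a median of 1.10. C1q-positive cells had 11 of 22 higher and none lower, with a median of 1.01. Per monocyte, the whole list had a median of 91.2 UMIs per 10000 in the Runx3_fl-labelled library and 160 in the Runx3-labelled library. The same medians were 84.0 and 155 in C1q-positive cells, 57.7 and 107 in T cells, and 49.0 and 82.7 in B cells. The rise was thus seen in every group measured. In monocytes Hspa1a, a heat shock protein 70 gene, was at 304 and 1760 CPM, and its near-identical neighbour Hspa1b at 180.5 and 1202 CPM. Reads of the pair cannot be told apart with certainty. Jun was at 105 and 465 CPM. Nr4a1 (chromosome 15, 101254269 to 101274795), a nuclear receptor required for Ly6C-low monocytes, had 173 CPM (162 to 184) in the first library against 442 CPM (427 to 458), which gives a ratio of 1.35. Its ratios in C1q-positive, T and B cells were 1.47, 0.94 and 2.14. Zfp36, which encodes a protein that degrades cytokine messages, was at 764 and 1523 CPM, a ratio that was just under the size read as a difference in monocytes and just over it in C1q-positive cells. Dissociation stress was not measured apart from these genes, and its part was not tested.

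Some genes also differed within the Runx3_fl-labelled library between cells of different sex-linked RNA. Hspa1a was at 882 CPM in the 95 monocytes with Xist and no Y-linked RNA and at 174 CPM in the 299 with Y-linked RNA and no Xist. Hspa1b was at 534 against 95.8 CPM and Egr1 at 188 against 97.5 CPM. Other stress genes were closer, among them Fos at 285 against 315 CPM and Junb at 1115 against 1108 CPM. Fn1 was at 377 against 66.4 CPM, Chil3 at 554 against 178 CPM and Ccl5 at 465 against 1348 CPM. Il1b was at 2788 against 4482 CPM, both above the 1523 CPM of the Y-linked cells in the Runx3-labelled library. Nr4a1 was at 184 and 164 CPM, both below 434 CPM. Using the cells with Y-linked RNA only, the ratio between libraries was 3.26 for Hspa1a, -1.56 for Il1b, 1.40 for Nr4a1 and 1.40 for Fn1, which was at 0.44 over all monocytes.

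Among transcription factors, 7 of 25 genes past the filter were higher by a log2 ratio of 1 or more and none was lower, with a median of 0.32. C1q-positive cells had 7 of 25 higher and 2 lower, with a median of 0.43. Hes1 (chromosome 16, 30064384 to 30067796), a repressor downstream of Notch, was at 7.39 CPM (5.35 to 9.96) in monocytes of the Runx3_fl-labelled library and at 205 CPM (195 to 216) in those of the Runx3-labelled library. At 2000 UMIs a Hes1 UMI was found in 1.57% and 22.0% of monocytes, against 0.563% and 3.93% of T cells. Klf2, a factor of quiescence and trafficking, was at 56.6 and 230 CPM, and Cebpa, a factor of myeloid commitment, at 12.5 and 57.5 CPM. In the macrophage maturation list 5 of 12 genes were higher and none lower, Apoe, Cx3cr1, Axl, Lgmn and Hes1, with a median of 0.79. Lgmn, a lysosomal protease, was at 202 and 588 CPM. The shift was not particular to monocytes. Among C1q-positive cells, 12 of 17 genes of the maturation list were higher and none lower, with a median of 1.17.

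Other named genes were lower. Slc7a2, a cationic amino acid transporter, was at 87.0 CPM in monocytes of the Runx3_fl-labelled library and 5.18 CPM in those of the Runx3-labelled library. The top 5% of monocytes held 85.6% of its UMIs in the first library. Mir155hg, the host transcript of a microRNA induced in activated macrophages, was at 662 and 136 CPM, Procr, the protein C receptor, at 81.7 and 18.4 CPM, and Upp1, uridine phosphorylase, at 56.4 and 12.7 CPM. Itga4, an integrin subunit for entry into the gut, was at 594 and 281 CPM, and Mki67, a proliferation gene, at 125 and 44.3 CPM. The cell cycle list did not follow Mki67. Of its 3 genes past the filter 2 had ratios above 0, and the median was 0.20. The transcripts Gm14636 and Gm16685 were at 210 and 49.1 CPM and at 74.3 and 7.77 CPM. Of genes higher in the Runx3-labelled library, Hmox1, which degrades haem, was at 104 and 363 CPM, Cxcr4, the receptor for CXCL12, at 140 and 363 CPM, and Nkain2 at 1.38 and 59.3 CPM.

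The MHC class II list had 7 genes past the filter and a median ratio of -0.57, with none past the fold. The pattern recognition list had a median of -0.27 over 14 genes and the glycolysis and hypoxia list of -0.23 over 14, and neither held a gene past the fold. The migration and adhesion list had 2 genes higher and 2 lower of 17. The classical monocyte list had 1 higher, Fcgr1, and 1 lower, Lyz2, of 19, with a median of 0.19. Chil3 and Fn1 had ratios of 0.58 and 0.44 over summed UMIs, but of -0.07 and -0.20 when every cell weighed the same, so no direction is read for them.

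**Figure D4:**
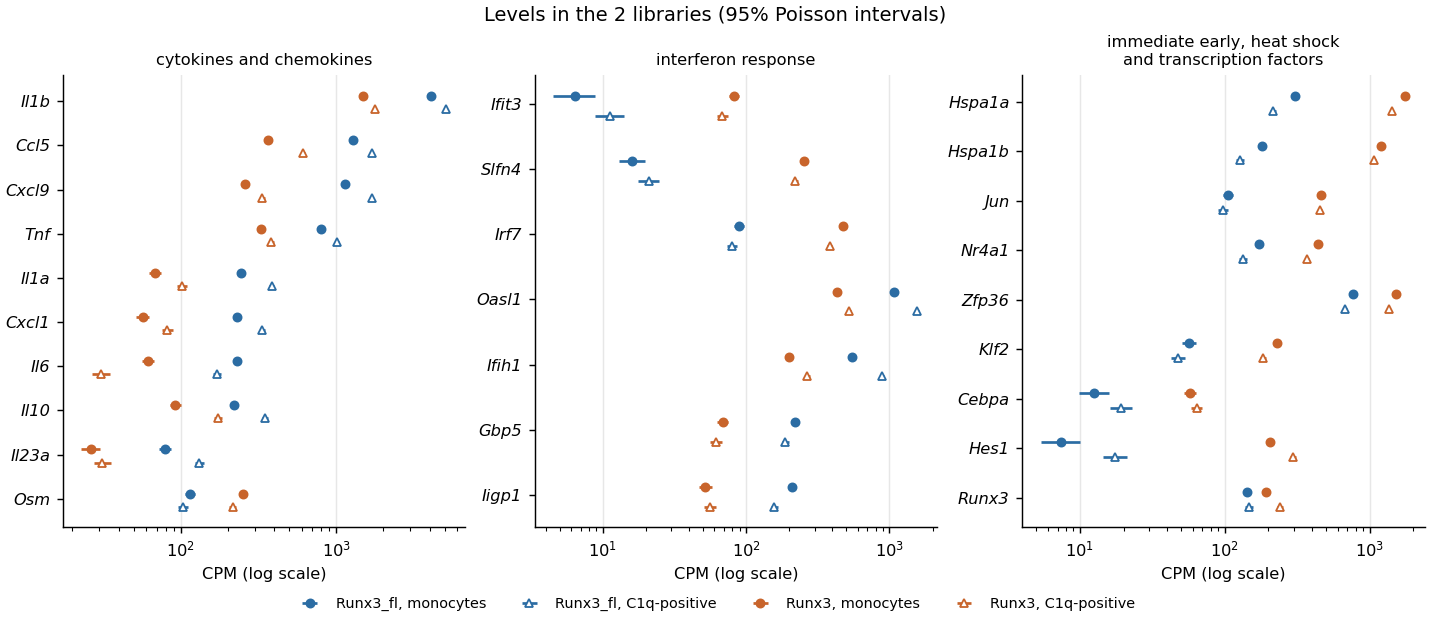
Levels (CPM, log axes) of named genes in the Runx3_fl-labelled library (blue) and the Runx3-labelled one (orange), in monocytes (filled circles) and C1q-positive cells (open triangles), with 95% Poisson intervals. Of the genes shown, the cytokines and chemokines other than Osm lie lower in the Runx3-labelled library, in both kinds of cell. Interferon response genes lie on both sides, and the stress and transcription factor genes shown lie higher, again in both kinds of cell.

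Neutrophil granule genes had very large ratios between the libraries, and most of their UMIs lay in few monocytes, although 160 of 446 and 613 of 707 monocytes held 2 or more UMIs of the list. Ngp, neutrophilic granule protein, was at 0 of 5817304 UMIs in monocytes of the Runx3_fl-labelled library and at 554 CPM in those of the Runx3-labelled library, at least 1074-fold higher against a floor of 3 UMIs. S100a8 was at 81.7 and 3016 CPM, and Camp, an antimicrobial peptide, at 0.172 and 373 CPM. Over the 11 neutrophil markers, the summed level was 288 CPM in the first library and 7339 CPM in the second, and the 36 monocytes with the most of them, 5% of the cells, held 93.7% of those UMIs in the second. The median monocyte had 4.68 UMIs of the list per 10000. T cells of the Runx3-labelled library had 91.9 CPM of S100a8 and 30.8 CPM of Ngp, and B cells 874 and 201 CPM. With cells left out that had 2 or more UMIs of Ly6g, Retnlg, Mmp8, Ltf, Camp and Ngp together, or 2 or more of T, NK and B cell markers other than immunoglobulin genes, 288 and 459 monocytes remained and the ratio of S100a8 went from 5.19 to 1.36 and that of S100a9 from 4.79 to 1.22. Ly6g, a defining neutrophil marker, was at 0 and 10.4 CPM.

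**Figure D5:**
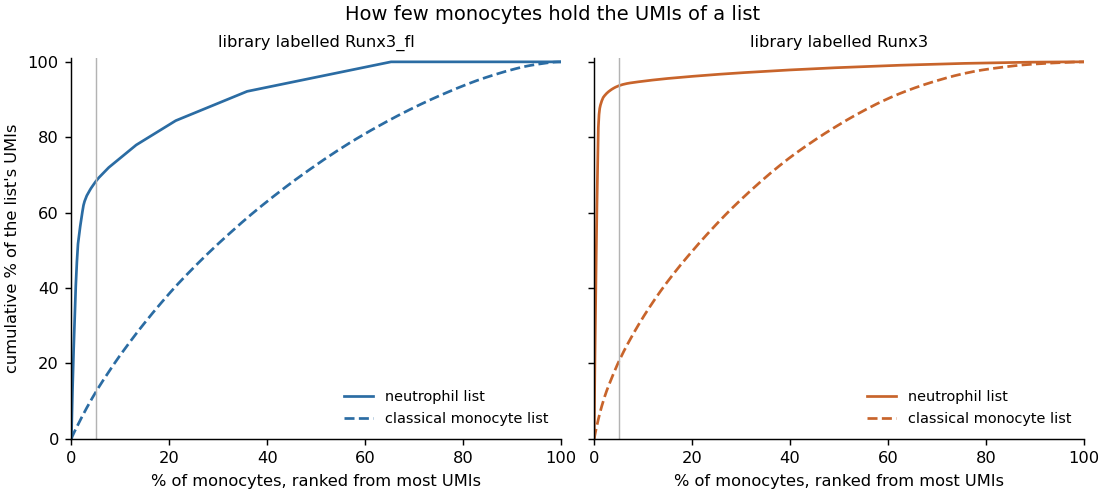
Cumulative percent of a list's UMIs (vertical axis) held by monocytes ranked from the most such UMIs (horizontal axis, percent of monocytes), for the neutrophil list (solid) and the classical monocyte list (dashed). The grey line marks 5% of the cells, which held 68.6% and 93.7% of the neutrophil UMIs and 12.8% and 20.7% of the classical monocyte UMIs in the Runx3_fl-labelled and Runx3-labelled libraries.

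RNA of other cell types was also present in monocytes. The B and plasma marker list summed to 318 and 1025 CPM, mostly Igkc and Igha, which were at 169 and 429 CPM and at 86.6 and 436 CPM. T cells, which make no antibody, had 391 and 645 CPM of Igkc, more than monocytes in both libraries, and 185 and 346 CPM of Igha, more than monocytes in the first library only. Gzma, a granzyme of cytotoxic lymphocytes, was at 175 and 44.4 CPM in monocytes and at 1850 and 142 CPM in T cells, and the top 5% of monocytes held 92.8% and 99.4% of its UMIs. Its ratio was -1.95, and 0.15 with simulated doublets removed.

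Cells that met the whole rule except for Nos2 numbered 70 and 31. They had Il1b at 7863 and 2763 CPM, Tnf at 1665 and 475 CPM and Il6 at 412 and 101.2 CPM, each above the level in monocytes of the same library. Runx3 was at 131 and 270 CPM in them. Since Nos2 chose these cells and their number was small, the values are given as a description.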

How the data were processed

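Colon lamina propria cells were profiled in 2 libraries with 10x Genomics 3' chemistry. The deposited files hold raw UMI counts per gene and barcode, and the authors kept barcodes called as cells by Cell Ranger 7.1.0 (file headers). The submitters' processing notes name mm10 and Seurat 4. Sequencing depth was 146204416 and 75478164 UMIs. Cells with 200 to 6000 genes and at most 15% mitochondrial UMIs were kept, 11885 of 12968 in the Runx3_fl-labelled library and 8167 of 8953 in the Runx3-labelled one. Doublets were treated only by the limit of 6000 genes, and removal of simulated doublets was an alternative.

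Monocytes, as defined in the report, were compared with Csf1r-positive cells with 2 or more C1q UMIs and no Nos2, Flt3, Cd3e or Cd79a, then between libraries. T cells and B cells had 2 or more UMIs of Cd3e or Cd79a, none of the other gene and no Csf1r. UMIs were summed over cells and given as CPM with exact Poisson intervals at 95%, and shares with Clopper-Pearson intervals. With 1 library per group no test was run. A ratio is the log2 of CPM plus 1. Genes counted were at 50 CPM and in 10% of cells of a group, without the rule's genes, and the size read as a difference was a log2 ratio of 1. Shares of cells with a UMI were read at 2000 UMIs per cell. A count of 0 allows 3 UMIs, or 0.516 and 0.409 CPM in monocytes. On simulated sums with 200 changed genes the ratio step returned each to within 0.5 on the log2 scale, over 3628 genes.

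Named genes were the label's markers, genes the study names, up to 3 genes per direction from each list and comparison, and the 10 with the largest ratios per direction. Other genes were chosen after their values were seen, as were the split by MHC class II and the cells by Xist. A gene among those to be named is not reported here. The members and lists were chosen with earlier results of these data known. Gene coordinates are from GENCODE M21 on GRCm38, in which 32158 of 32285 gene IDs were found. Python 3.11.15, numpy 2.4.6, scipy 1.17.1 and scikit-learn 1.9.0 were used.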

Additional observations from a re-analysis of the deposited data

Results flagged for a closer look

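Outside the limits on genes and mitochondrial RNA, 9 of 786 cells of the Runx3-labelled library met the rest of the monocyte rule, 1.15% of those cells, which is above the 0.382% that a count of 0 would allow. It was singled out as a signal in cells that no comparison used. Of the 9, 5 had more than 6000 genes and 5 had more than 15% mitochondrial UMIs. In the Runx3_fl-labelled library it was 1 of 1083 cells, or 0.0923%.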

How the results depend on the processing

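The limits on members, the UMI depth and the filter on low counts moved values most, and with 1 library per group none of this bears on how animals differ. The monocyte share was 3.04% and 7.80% with Ly6c2 at 6 or more per 10000, 4.53% and 9.29% at 1 or more, 2.42% and 5.62% without cells that held other-lineage UMIs, and 4.24% and 9.51% in cells with Y-linked RNA and no Xist, each in the Runx3_fl-labelled and then the Runx3-labelled library. It was 4.12% in the first with at most 4000 genes per cell. In the second it was 6.58% with no C1q UMI, 7.78% with C1q at most 1 per 10000 and 10.8% with the rule read at 5000 UMIs.

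Genes higher in monocytes than in C1q-positive cells of the Runx3-labelled library numbered 17 with no C1q UMI, 23 with C1q at most 1 per 10000, 26 at 5000 UMIs, 17 with free RNA subtracted and 23 with no limit on Nos2, Flt3, Cd3e and Cd79a in the compared cells. In the Runx3_fl-labelled library they numbered 23 with Ly6c2 at 6 or more, 24 with free RNA subtracted, 25 with no such limit, which gave 84 lower, and 9 in cells with Y-linked RNA. With all genes of 10 UMIs or more, 113 were higher and 293 lower in that library, 129 and 476 in the other, and 1954 and 264 between libraries. Set against the median gene, the split between libraries was 221 higher and 128 lower. The cause was not tested.

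Signs turned for Gzma between libraries, to 0.15 with simulated doublets removed and 0.069 with at most 4000 genes per cell, and against C1q-positive cells of the Runx3_fl-labelled library, to 2.64 with free RNA subtracted. Igkc turned to 1.78 in the other library with free RNA subtracted. Mmp8 turned between libraries, to -0.77 without other-lineage cells and -0.30 with at most 4000 genes. With at most 4000 genes, against C1q-positive cells of the Runx3-labelled library, the neutrophil list had a median of -1.25, Lcn2 -1.40, Mmp8 -0.20, Ngp -1.39, Camp -1.10, Retnlg -2.59, Ltf -1.51, S100a8 -1.47 and S100a9 -1.03. The alternatives without other-lineage cells, by Y-linked RNA and by 4000 genes were chosen after seeing the data. The planned version that counted immunoglobulin genes left 33 and 10 monocytes and was not run. No paired analysis was possible because each group was 1 library.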
